A study of Mus musculus with 75 samples.

Results

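Retinoic acid receptor alpha, encoded by Rara, was overexpressed in mouse embryonic stem cells, and RNA from these cells was compared with RNA from cells carrying the vector. The comparison covers 4 of the 75 samples of the series, 2 libraries labelled Rarα-OE and 2 labelled V-OE, and every gene of their count table. The series also holds RNA-seq of receptor knockout and Cyp26 enhancer deletion lines, chromatin immunoprecipitation and chromosome contact data. All cells described here were of the E14 line, a line derived from mouse blastocysts and kept in serum with LIF, a MEK inhibitor and a GSK inhibitor (LIF/2i). All libraries, the vector controls included, came from cells in which LIF/2i had been taken away and 2 µM retinoic acid (RA) given for 24 h. The groups used were Rarα-OE (2 libraries), Rxrα-OE (2 libraries, retinoid X receptor alpha overexpressed) and their common control V-OE (2 libraries), and, from a separately counted table, Rarα-KO (2 libraries, Rara knocked out) and its wild-type control WT-RARX (2 libraries). The labels give neither the promoter that drove the transgenes nor whether each line was 1 clone, and no group without RA was sequenced beside the overexpressing lines. Replicates are called biological in the labels, but no culture or clone is named, so the p-values measure only the spread between these libraries.

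RA, a derivative of vitamin A, enters the nucleus and binds retinoic acid receptors, which sit on DNA as heterodimers with retinoid X receptors. Without RA the pair recruits corepressors, and with RA it recruits coactivators; its classical sites are direct repeats of a short half-site, and its best known targets include the CYP26 enzymes that destroy RA, the receptor gene Rarb and the Hox genes. In stem cells of the blastocyst RA drives an exit from pluripotency, and depending on the culture it leads toward neural or extraembryonic endoderm fates.

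Rara was higher in the cells labelled as overexpressing it. Rara lies on chromosome 11 (98927818 to 98974942, plus strand, mm10). It had 105 and 111 CPM (counts scaled to the size of the library, a relative level) in the Rarα-OE libraries, against 51.6 and 52.4 CPM in the V-OE libraries, and 55.2 and 51.0 CPM in the Rxrα-OE libraries. Both Rarα-OE libraries stood above all 4 others. The log2 fold change over V-OE was 1.05 ± 0.07 (SE; edgeR quasi-likelihood test over 16914 genes, Benjamini-Hochberg adjusted p = 2.36e-17), a 2.07-fold level. Reads from the transgene and from the cell's own gene cannot be told apart in these counts. Rxra, which encodes the heterodimer partner, had 40.5 and 47.8 CPM in Rarα-OE and 45.7 and 42.9 CPM in V-OE. These libraries overlapped, with a log2 fold change of -0.01 ± 0.08 (adjusted p = 0.937).

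The 6 libraries of the overexpression table held between 7835519 and 11453063 counts, of which 1.77% to 2.05% came from mitochondrial genes. Replicates differed in variance by 2.27 times the counting variance in Rarα-OE and 2.24 times in V-OE. Of 12 embryonic stem cell markers all 12 were measured, with sums of 7263 and 7274 CPM in Rarα-OE and 8702 and 8479 CPM in V-OE. Of 12 fibroblast (feeder) markers 3 had enough counts to test, with sums of 62.3 and 67.1 CPM in Rarα-OE and 33.9 and 33.8 CPM in V-OE. The others, Col1a2, Col3a1, Postn, Lum, Dcn, Acta2, Prrx1, Twist2 and Fap, had at most 4 counts in each Rarα-OE and V-OE library. Of 10 blood cell markers 3 were tested, with sums of 23.1 and 21.3 CPM in Rarα-OE and 4.35 and 3.77 CPM in V-OE, of which Runx1 made up 19.2 and 17.8 CPM in Rarα-OE and 1.69 and 1.63 CPM in V-OE; the part of these cells' markers in the results was not tested. No chromosome moved as a whole: the median log2 fold change per nuclear chromosome with 401 genes or more lay between -0.03 (chromosome 5) and 0.05 (chromosome 12).

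A direct repeat with 5 bases between its half-sites is the classical RA response element. The 250 bases before the start of Cyp26a1 and of Rarb are shown because both hold such a repeat: Cyp26a1 is the most deeply counted of the RA-degrading genes below, and Rarb is the receptor gene best known for its response to RA. Half-sites were searched in 4 spellings, first AGGTCA, then the spelling AGTTCA, then the spelling GGGTCA and lastly the spelling GGTTCA, on both strands, with a spacing of 1, 2 or 5 bases. Sequences are from RefSeq (GRCm38.p6), written 5′ to 3′ along the gene's strand, with the whole repeat in capitals.
Cyp26a1, chr19:37697558-37697807, plus strand: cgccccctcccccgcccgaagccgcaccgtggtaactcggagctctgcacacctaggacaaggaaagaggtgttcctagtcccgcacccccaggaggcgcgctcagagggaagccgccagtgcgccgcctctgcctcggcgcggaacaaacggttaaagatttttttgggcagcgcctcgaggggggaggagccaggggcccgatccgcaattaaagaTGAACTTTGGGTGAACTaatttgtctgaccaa
Rarb, chr14:16575477-16575726, minus strand: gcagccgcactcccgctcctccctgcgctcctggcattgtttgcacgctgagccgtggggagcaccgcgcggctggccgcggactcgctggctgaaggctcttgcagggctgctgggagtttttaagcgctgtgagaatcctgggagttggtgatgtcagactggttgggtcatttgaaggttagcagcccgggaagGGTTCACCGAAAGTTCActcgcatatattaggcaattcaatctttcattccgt
In Cyp26a1 the repeat reads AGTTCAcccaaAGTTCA on the opposite strand and ends 16 bases before the start. In Rarb it reads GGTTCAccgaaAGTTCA and ends 37 bases before the start. Over windows from 250 bases before to 50 bases after the start, 6 of the 11367 tested genes with a window held a repeat of spacing 5 (0.0528%), 15 one of spacing 2 (0.132%) and 35 one of spacing 1 (0.308%). Among the 1811 genes with a window that rose in Rarα-OE, 1 (Cyp26a1) held spacing 5, 3 held spacing 2 and 2 held spacing 1. Among the 1699 that fell, 0 held spacing 5, 2 held spacing 2 and 3 held spacing 1. These are matches of letters in short windows and leave out distal enhancers.

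Across all genes, 4829 of 16914 (28.6%) passed the test at an adjusted p under 0.05, 2482 higher in Rarα-OE (14.7%) and 2347 lower (13.9%). Most of the differences were small: the median log2 fold change was 0.54 among the rises and -0.36 among the falls. At 2-fold or more, 903 genes passed (5.34%), of which 596 rose (3.52%) and 307 fell (1.82%). The median over all tested genes was 0.00. DESeq2's Wald test called 2416 genes, of which 2413 were among the 4829, each in the same direction.

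**Figure D1:**
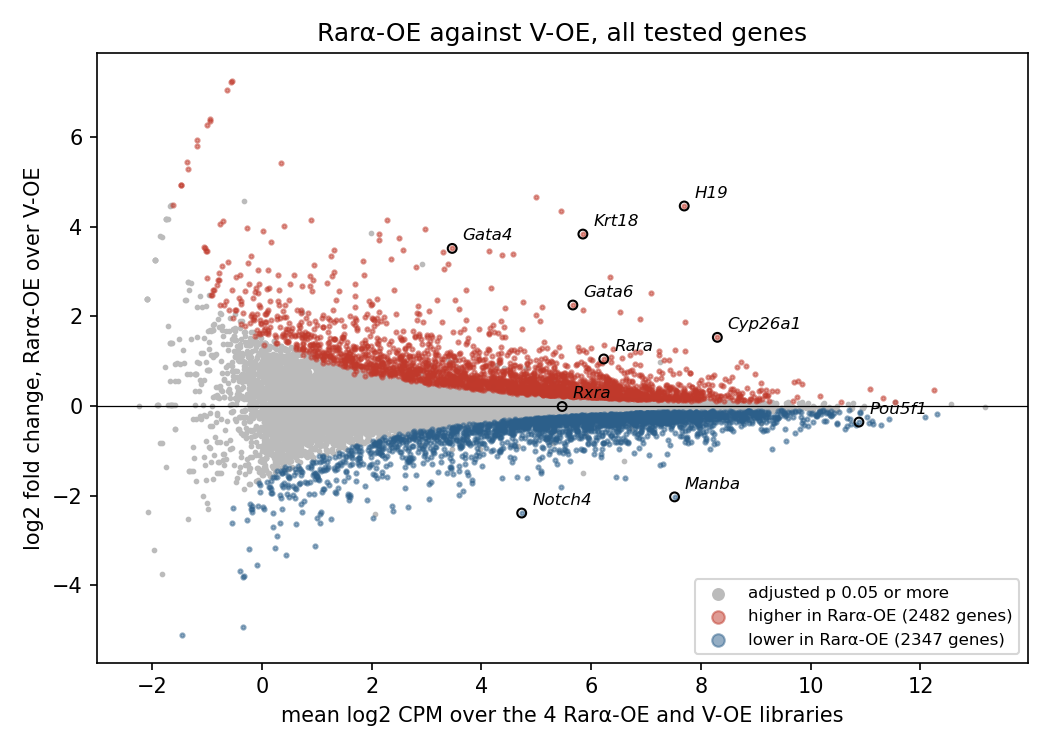
Each point is 1 tested gene, with its mean log2 CPM over the 4 libraries on the x axis and its log2 fold change of Rarα-OE over V-OE on the y axis; red points were called higher and blue points lower. H19 lies at 4.46, Rara at 1.05 and Rxra at -0.01. Points in diagonal rows at the far left have few or no counts in V-OE, in Rarα-OE or in both, and their fold changes depend on the prior count.

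The enzymes that break down RA rose together. The 3 CYP26 enzymes are cytochromes P450 that hydroxylate RA, and all 3 were called, where 14.7% of tested genes rose. Cyp26a1 had 529 and 541 CPM in Rarα-OE, 1088 and 1096 CPM in Rxrα-OE and 184 and 186 CPM in V-OE. Its log2 fold change over V-OE was 1.53 ± 0.04 (adjusted p = 1.26e-35), with no overlap between any of the 3 groups. Cyp26b1 had 57.0 and 58.3 CPM in Rarα-OE, 410 and 391 CPM in Rxrα-OE and 25.003 and 18.3 CPM in V-OE, a log2 fold change over V-OE of 1.43 ± 0.09 (adjusted p = 2.18e-16). Cyp26c1 had 19.5 and 19.99 CPM in Rarα-OE, 57.1 and 56.3 CPM in Rxrα-OE and 4.71 and 7.65 CPM in V-OE, a log2 fold change over V-OE of 1.65 ± 0.16 (adjusted p = 1.08e-12). The order V-OE, Rarα-OE, Rxrα-OE was thus the same in all 3 genes. Tested directly, Rarα-OE was below Rxrα-OE in each, by log2 differences of -1.03 for Cyp26a1, -2.80 for Cyp26b1 and -1.52 for Cyp26c1 (highest adjusted p = 2.06e-17, edgeR).

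Genes that supply, bind and carry retinoids moved upward where they moved. Of 16 listed, 13 were tested. Of these 7 rose and 0 fell (14.7% and 13.9% over all tested genes), with a median log2 fold change of 0.57. Crabp2, which hands RA to the nuclear receptor, had 6.83 and 6.41 CPM in Rarα-OE and 2.42 and 2.65 CPM in V-OE (log2 fold change 1.38, adjusted p = 6.32e-06). Crabp1, which binds RA in the cytoplasm, had 14.3 and 16.3 CPM in Rarα-OE and 9.06 and 6.63 CPM in V-OE (0.97, adjusted p = 1.02e-05). In both genes the libraries of the groups were apart. Stra6, the membrane receptor that takes up retinol, had 27.2 and 28.7 CPM in Rarα-OE and 15.9 and 16.7 CPM in V-OE (0.77, adjusted p = 7.37e-07). Dhrs3, which turns retinal back into retinol, had 46.2 and 46.8 CPM in Rarα-OE, 103 and 105 CPM in Rxrα-OE and 33.5 and 29.4 CPM in V-OE. It rose over V-OE by 0.57 on the log2 scale (adjusted p = 7.39e-07) and was lower in Rarα-OE than in Rxrα-OE, by a difference of -1.16 (adjusted p = 1.92e-19). Aldh1a2, which makes RA from retinal, had 1.81 and 1.28 CPM in Rarα-OE and 0.846 and 0.408 CPM in V-OE and was not called (adjusted p = 0.0698). The calls of Aldh1a3 and Rdh11, which also rose, were lost when single libraries were left out: Aldh1a3 without any 1 of the 4, Rdh11 without Rarα-OE replicate 2 or V-OE replicate 2.

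The other receptors did not follow Rara. Rarg, the gamma form of the receptor, had 207 and 213 CPM in Rarα-OE, 61.9 and 64.6 CPM in Rxrα-OE and 359 and 356 CPM in V-OE. It fell in Rarα-OE by 0.77 on the log2 scale (SE 0.05, adjusted p = 9.58e-20) and stood between the other groups. Rarb, whose promoter is shown above, had 24.7 and 27.7 CPM in Rarα-OE, 54.8 and 52.0 CPM in Rxrα-OE and 20.5 and 22.3 CPM in V-OE. Both Rarα-OE libraries were above both V-OE libraries, but the log2 fold change of 0.28 ± 0.11 did not pass (adjusted p = 0.0536); against Rxrα-OE the difference was -1.03 (adjusted p = 3.32e-13). Among 12 corepressors and coactivators, 5 rose and 1 fell, with a median of 0.04, where 14.7% of all tested genes rose and 13.9% fell; Nrip1, a ligand-dependent corepressor, had 86.3 and 75.5 CPM in Rarα-OE and 50.4 and 54.1 CPM in V-OE (0.63, adjusted p = 1.38e-09).

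Of 22 textbook RA targets, which include several genes above, 21 were tested. Of these 14 rose and 1 fell (14.7% and 13.9% over all tested genes), and their median log2 fold change was 0.76. Zfp703, a zinc finger repressor, had 86.4 and 93.7 CPM in Rarα-OE and 42.8 and 44.5 CPM in V-OE (1.04, adjusted p = 1.31e-17). Tgm2, tissue transglutaminase, had 34.8 and 44.2 CPM in Rarα-OE and 20.1 and 20.3 CPM in V-OE (0.96, adjusted p = 6.59e-10). The member that fell was Stra8, a gene of meiotic entry, with 283 and 279 CPM in Rarα-OE, 517 and 530 CPM in Rxrα-OE and 353 and 331 CPM in V-OE. Stra8 was thus below V-OE in Rarα-OE (-0.28, adjusted p = 7.89e-07), while its log2 fold change of Rxrα-OE over V-OE was 0.62. Of the 21 tested targets 15 were lower in Rarα-OE than in Rxrα-OE, 2 were higher and 4 did not pass, where 23.8% of all tested genes were lower and 23.4% higher.

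**Figure D2:**
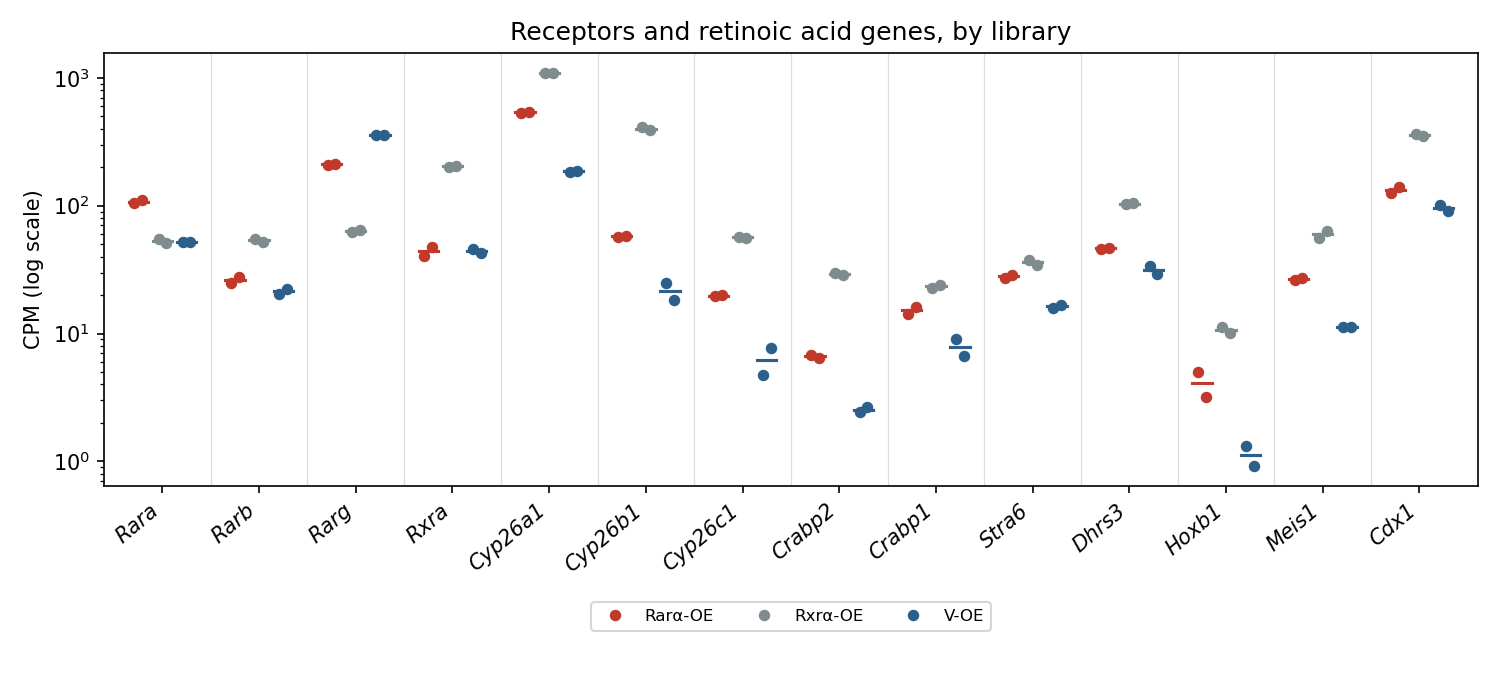
CPM (log scale) of receptor and RA genes in each of the 6 libraries, with Rarα-OE in red, Rxrα-OE in grey and V-OE in blue; points are libraries and bars group means. Rara is highest in Rarα-OE, while Cyp26a1, Cyp26b1, Cyp26c1 and Crabp2 run in the order V-OE, Rarα-OE, Rxrα-OE, and Rarg runs the other way.

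Hox genes set position along the body axis. In the Hoxa cluster 4 of 12 tested entries rose and 0 fell (14.7% and 13.9% over all tested genes), with a median of 0.22. Hotairm1, a non-coding RNA made from the cluster, had 47.9 and 46.0 CPM in Rarα-OE and 27.8 and 27.8 CPM in V-OE (0.76, adjusted p = 4.73e-09), and Hoxa5 had 102 and 94.6 CPM in Rarα-OE and 80.8 and 70.6 CPM in V-OE (0.39, adjusted p = 2.23e-05). Hotairm1 lies antisense to Hoxa genes and the counting is not known to use strand, so reads shared with them cannot be told apart. Hoxa9 also rose (0.74, adjusted p = 0.0115), a call lost without Rarα-OE replicate 2 or V-OE replicate 1.

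In the Hoxb cluster 6 of 10 rose and 0 fell (14.7% and 13.9% over all tested genes), with a median of 1.26, at low counts. Hoxb1, the most 3′ gene of the cluster and an early RA target, had 5.02 and 3.20 CPM in Rarα-OE, 11.2 and 10.1 CPM in Rxrα-OE and 1.33 and 0.918 CPM in V-OE (1.91 over V-OE, adjusted p = 2.39e-05). Hoxb4 had 5.33 and 3.97 CPM in Rarα-OE, 10.2 and 11.8 CPM in Rxrα-OE and 2.29 and 1.63 CPM in V-OE (1.27, adjusted p = 0.000834), and Hoxb8 had 4.52 and 4.36 CPM in Rarα-OE and 1.09 and 1.94 CPM in V-OE (1.52, adjusted p = 0.000396). Hoxb3 rose too (2.34, adjusted p = 0.000575), and the calls of Hoxb6 and Hoxb13 were lost without Rarα-OE replicate 1 or V-OE replicate 2. Between the overexpressing lines, 4 Hoxa entries were higher in Rarα-OE than in Rxrα-OE and 0 lower, whereas 0 Hoxb genes were higher and 6 lower. Over all tested genes 23.4% were higher and 23.8% lower. Whether the clusters differ from each other was not tested.

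Of 10 tested Cdx genes and TALE cofactors, 5 rose and 0 fell (14.7% and 13.9% over all tested genes). Meis1, a homeobox partner of Hox proteins, had 26.4 and 27.2 CPM in Rarα-OE, 56.1 and 63.7 CPM in Rxrα-OE and 11.4 and 11.2 CPM in V-OE (1.25 over V-OE, adjusted p = 7.07e-12). Cdx1, a caudal homeobox gene, had 124 and 140 CPM in Rarα-OE, 364 and 348 CPM in Rxrα-OE and 101 and 91.4 CPM in V-OE (0.46, adjusted p = 1.45e-08). Cdx2 had 1.71 and 2.43 CPM in Rarα-OE, 17.9 and 16.1 CPM in Rxrα-OE and 0.846 and 0.408 CPM in V-OE; its rise of 1.72 (adjusted p = 0.00265) was not called without V-OE replicate 2. The call of Pknox2 was also lost without single libraries.

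The factors of primitive endoderm, the extraembryonic layer that lines the blastocyst cavity, rose in Rarα-OE. Of 10 tested, 8 rose and 1 fell (14.7% and 13.9% over all tested genes). Their median log2 fold change was 2.48, beside 0.76 for the RA targets, which also include Gata6, and 0.00 for all genes. Gata4 (chromosome 14, 63198922 to 63271692, minus strand) had 37.0 and 35.2 CPM in Rarα-OE, 25.9 and 29.1 CPM in Rxrα-OE and 3.26 and 3.06 CPM in V-OE. It rose 11.4-fold over V-OE (log2 3.51 ± 0.16, adjusted p = 7.00e-25) and was also above Rxrα-OE (0.39, adjusted p = 0.00351). Gata6, a zinc finger factor required for this lineage (chromosome 18, 11052064 to 11085635, plus strand), had 108 and 113 CPM in Rarα-OE, 111 and 110 CPM in Rxrα-OE and 22.6 and 23.7 CPM in V-OE. It rose 4.76-fold over V-OE (2.25 ± 0.08, adjusted p = 5.48e-30), and the overexpressing lines overlapped (difference -0.00 ± 0.07, adjusted p = 0.969). Pdgfra, a growth factor receptor that marks the lineage, had 46.6 and 42.8 CPM in Rarα-OE, 32.3 and 29.6 CPM in Rxrα-OE and 6.76 and 7.55 CPM in V-OE (2.64 over V-OE, adjusted p = 1.03e-23). Sox17, an SRY-box factor, had 24.8 and 31.4 CPM in Rarα-OE, 72.6 and 67.7 CPM in Rxrα-OE and 3.26 and 3.37 CPM in V-OE (3.07 over V-OE, adjusted p = 2.88e-22). Gata4 and Pdgfra were thus highest in Rarα-OE, and Sox17 in Rxrα-OE (difference -1.33, adjusted p = 2.96e-17). Sall1, which is also expressed in naive stem cells, was the member that fell, with 25.8 and 27.04 CPM in Rarα-OE and 69.3 and 60.3 CPM in V-OE (-1.29, adjusted p = 1.37e-16).

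Genes of the endoderm's basement membrane and of its uptake machinery followed. Of 18 tested, 15 rose and 0 fell (14.7% and 13.9% over all tested genes), with a median of 1.08. Cubn, the endocytic receptor cubilin, had 27.8 and 32.3 CPM in Rarα-OE and 1.45 and 2.35 CPM in V-OE (3.95, adjusted p = 6.85e-24). Dab2, an endocytic adaptor, had 30.1 and 33.4 CPM in Rarα-OE and 2.17 and 4.69 CPM in V-OE (3.16, adjusted p = 9.53e-21). Lama1, a laminin chain, had 197 and 184 CPM in Rarα-OE, 130 and 127 CPM in Rxrα-OE and 44.8 and 44.7 CPM in V-OE (2.09, adjusted p = 4.07e-33). The V-OE libraries were below both overexpressing lines in each of these genes. Collagen IV chains Col4a1 and Col4a2 rose by 1.23 and 1.28 over V-OE (adjusted p = 1.63e-27 and 1.82e-24) but were lower in Rarα-OE than in Rxrα-OE by differences of -1.15 and -1.23. Against Rxrα-OE, 6 of the 18 were higher, 8 lower and 4 did not pass, where 23.4% of all tested genes were higher and 23.8% lower.

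Markers of trophectoderm, the outer layer of the blastocyst, rose as well. Of 13 tested, 10 rose and 0 fell (14.7% and 13.9% over all tested genes), with a median of 1.38. The largest were keratins, filament proteins of simple epithelia that are not limited to trophectoderm. Krt18 had 218 and 216 CPM in Rarα-OE, 251 and 259 CPM in Rxrα-OE and 14.3 and 16.0 CPM in V-OE, a 14.3-fold rise over V-OE (3.83 ± 0.07, adjusted p = 2.47e-43). Its partner Krt8 had 302 and 349 CPM in Rarα-OE, 311 and 336 CPM in Rxrα-OE and 56.9 and 56.5 CPM in V-OE (2.52, adjusted p = 5.16e-26). Gata2, a zinc finger factor, had 8.74 and 7.56 CPM in Rarα-OE and 1.33 and 1.84 CPM in V-OE (2.35, adjusted p = 3.82e-10). Gata3, which helps set up trophectoderm, had 7.54 and 9.23 CPM in Rarα-OE and 7.25 and 9.69 CPM in V-OE, which overlapped (-0.04, adjusted p = 0.92). In bulk RNA, more cells of a kind and more RNA per cell cannot be told apart.

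Pluripotency genes moved down by smaller steps, with exceptions. Of 24 genes listed for naive pluripotency, the stem cell state held by LIF/2i, all 24 were tested. Among them 17 fell and 5 rose (13.9% and 14.7% over all tested genes), with a median of -0.37. The 17 include Manba, a lysosomal beta-mannosidase, which had the list's lowest value (-2.03) and is also named below among the largest falls. The list was chosen with earlier results of these data known. Pou5f1 (Oct4) had 1660 and 1665 CPM in Rarα-OE, 831 and 857 CPM in Rxrα-OE and 2155 and 2108 CPM in V-OE (-0.36 ± 0.03 against V-OE, adjusted p = 1.40e-12). Nanog had 990 and 1046 CPM in Rarα-OE, 184 and 190 CPM in Rxrα-OE and 1226 and 1156 CPM in V-OE (-0.23 ± 0.04, adjusted p = 4.19e-06). Sox2 had 232 and 228 CPM in Rarα-OE, 22.2 and 23.2 CPM in Rxrα-OE and 394 and 374 CPM in V-OE (-0.74 ± 0.05, adjusted p = 4.15e-19). The 3 core factors were therefore all lower than in V-OE and all well above Rxrα-OE, by differences of 0.98 for Pou5f1, 2.44 for Nanog and 3.34 for Sox2 (highest adjusted p = 1.31e-30). Zfp42 (Rex1), a marker of the naive state, had 459 and 437 CPM in Rarα-OE, 80.6 and 77.2 CPM in Rxrα-OE and 886 and 855 CPM in V-OE (-0.96, adjusted p = 1.89e-26). Tcl1, a cofactor of AKT signalling, had 6.83 and 9.10 CPM in Rarα-OE and 26.2 and 23.6 CPM in V-OE (-1.66, adjusted p = 2.06e-11).

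The rises among naive genes were Tbx3, Tfcp2l1, Klf2, Dppa5a and Dppa3, of which Klf2 was not called without V-OE replicate 2. Tbx3, a T-box factor, had 747 and 756 CPM in Rarα-OE, 350 and 355 CPM in Rxrα-OE and 602 and 600 CPM in V-OE (0.32, adjusted p = 1.23e-09). Tfcp2l1 had 518 and 535 CPM in Rarα-OE and 385 and 409 CPM in V-OE (0.41, adjusted p = 2.12e-11). Dppa3 had 3.52 and 2.69 CPM in Rarα-OE and 0.846 and 1.02 CPM in V-OE (1.72, adjusted p = 0.00245), a call lost without Rarα-OE replicate 1. Of the 24, 22 were higher in Rarα-OE than in Rxrα-OE and 1, Klf4, was lower, where 23.4% of tested genes were higher.

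Formative and primed genes mark the next stage of the epiblast. Of 14 tested, 7 fell and 2 rose (13.9% and 14.7% over all tested genes), with a median of -0.26. Zic2 and Zic5, zinc finger genes side by side, fell by 1.06 and 0.92 (adjusted p = 2.40e-12 and 6.55e-10), with 26.0 and 25.9 CPM of Zic2 in Rarα-OE against 56.8 and 51.7 CPM in V-OE. Dnmt3b, a de novo DNA methyltransferase, went the other way with 384 and 383 CPM in Rarα-OE, 205 and 211 CPM in Rxrα-OE and 234 and 239 CPM in V-OE (0.70, adjusted p = 4.95e-19). Among the other DNA methylation enzymes Tet1, which oxidises methylcytosine, had 178 and 164 CPM in Rarα-OE and 285 and 309 CPM in V-OE (-0.80, adjusted p = 1.05e-18). Of 13 tested neuroectoderm genes 0 rose and 3 fell, with a median of 0.10, where 13.9% of all tested genes fell: Tubb3, a neuronal tubulin, had 18.1 and 23.1 CPM in Rarα-OE and 58.1 and 54.3 CPM in V-OE (-1.46, adjusted p = 1.22e-12), and Gbx2 and Sox21 fell by 1.02 and 1.06 (adjusted p = 9.14e-09 and 2.11e-05).

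**Figure D3:**
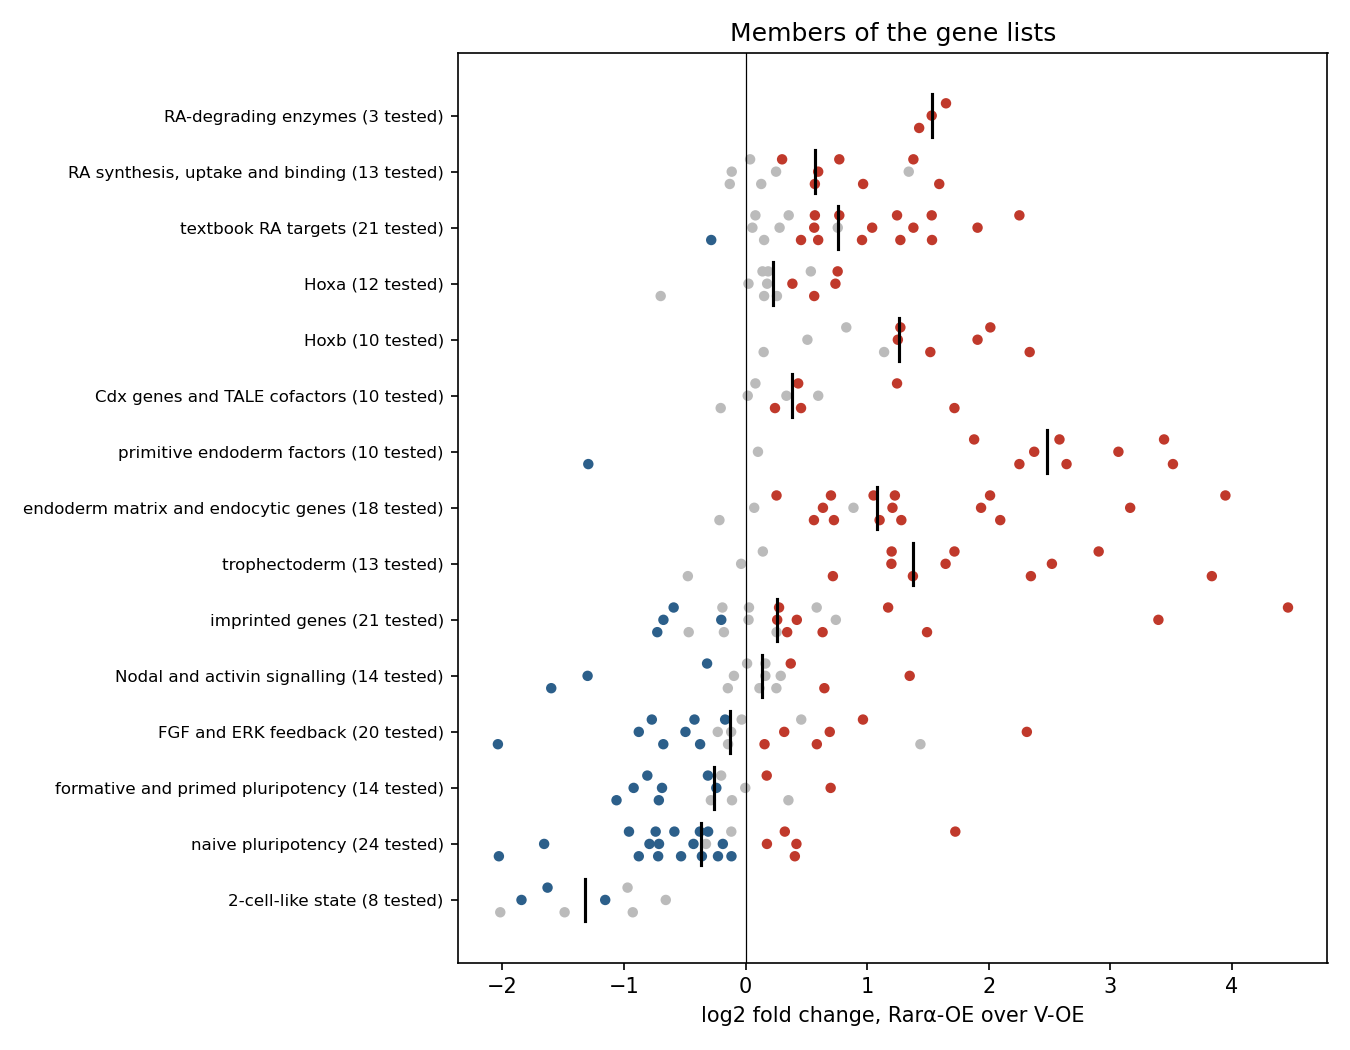
Log2 fold change of Rarα-OE over V-OE for the tested members of each list, 1 point a gene, red where called higher, blue where called lower and grey where not called; black bars are list medians. The medians run between 2.48 for primitive endoderm factors and -1.32 for the 2-cell-like list, with naive pluripotency at -0.37.

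Signalling genes moved in both directions. Fgf4, the growth factor that naive cells secrete, had 121 and 135 CPM in Rarα-OE and 235 and 233 CPM in V-OE (-0.88, adjusted p = 7.38e-19), while Fgfr2, a receptor for it in primitive endoderm, had 65.3 and 53.9 CPM in Rarα-OE and 12.7 and 11.5 CPM in V-OE (2.31, adjusted p = 4.93e-25). Over 20 tested FGF and ERK feedback genes 6 rose and 8 fell (14.7% and 13.9% over all tested genes). Inhbb, the beta B subunit of activin, had 55.8 and 57.2 CPM in Rarα-OE, 1.62 and 1.61 CPM in Rxrα-OE and 173 and 169 CPM in V-OE (-1.60, adjusted p = 3.69e-26), and Tdgf1, the Nodal coreceptor Cripto, had 97.6 and 105 CPM in Rarα-OE and 256 and 240 CPM in V-OE (-1.30, adjusted p = 9.43e-25). Yet over 14 tested Nodal and activin genes 3 rose and 3 fell, with a median of 0.14. Bmp4 had 9.24 and 6.66 CPM in Rarα-OE and 18.96 and 25.4 CPM in V-OE (-1.47, adjusted p = 2.40e-09). It was not typical of the BMP list, where 5 of 15 tested genes rose and 2 fell, with a median of 0.29. In the Wnt list Dkk1, a secreted inhibitor, had 6.73 and 5.77 CPM in Rarα-OE and 0.362 and 1.22 CPM in V-OE (2.91, adjusted p = 2.52e-08), and Notum, an enzyme that inactivates Wnt ligands, had 5.63 and 7.30 CPM in Rarα-OE and 24.3 and 23.4 CPM in V-OE (-1.89, adjusted p = 6.69e-13). The Wnt list had 20 tested genes, of which 6 rose and 2 fell, with a median of 0.39. In each gene given with its CPM in this paragraph the Rarα-OE and V-OE libraries were apart.

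Among genes with a mean of at least 1 on the log2 CPM scale, the 12 largest rises were H19, Zfp36l3, Cubn, Krt18, Thsd4, Slc13a4, Gata4, Runx1, Vnn1, Pgam2, Foxq1 and Igf2, with log2 fold changes between 4.46 and 3.39. H19, an imprinted non-coding RNA made from the maternal allele (chromosome 7, 142575529 to 142578143, minus strand), had 967 and 971 CPM in Rarα-OE, 1686 and 1728 CPM in Rxrα-OE and 47.5 and 41.0 CPM in V-OE, a 22.003-fold rise over V-OE (adjusted p = 2.28e-54). Its neighbour Igf2, an imprinted growth factor made from the paternal allele, had 76.8 and 75.7 CPM in Rarα-OE, 68.7 and 69.7 CPM in Rxrα-OE and 7.13 and 7.34 CPM in V-OE, a 10.5-fold rise (adjusted p = 2.53e-32). Both genes of this pair were therefore far above V-OE, and H19 but not Igf2 differed between the overexpressing lines (differences -0.82 and 0.14, adjusted p = 1.61e-25 and 0.119). Of 21 tested imprinted genes 9 rose and 4 fell (14.7% and 13.9% over all tested genes), with a median of 0.26. The next largest after H19 and Igf2 was Airn, the non-coding RNA antisense to Igf2r (1.49, adjusted p = 0.0015, not called without V-OE replicate 2). Runx1, a factor of blood formation, had 19.2 and 17.8 CPM in Rarα-OE and 1.69 and 1.63 CPM in V-OE (adjusted p = 1.25e-18), while the other tested blood markers, Gata1 and Cd34, were at 2.51 CPM or less in every Rarα-OE and V-OE library. Pgam2, a phosphoglycerate mutase of muscle, had 55.4 and 59.7 CPM in Rarα-OE, 169 and 179 CPM in Rxrα-OE and 6.40 and 4.18 CPM in V-OE (adjusted p = 5.14e-30).

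The 12 largest falls were Wdr20rt, Dgkeos, Cox20, Notch4, Hrh3, Prmt8, Crmp1, Notumos, Ankrd34a, Smtnl1, Fgf15 and Manba, with log2 fold changes between -2.52 and -2.03. All but 2 had under 20 CPM in V-OE. The exceptions were Notch4, a Notch receptor (chromosome 17, 34564268 to 34588503, plus strand), with 11.4 and 11.7 CPM in Rarα-OE, 1.16 and 1.27 CPM in Rxrα-OE and 62.1 and 58.4 CPM in V-OE (-2.39 ± 0.12, adjusted p = 2.70e-23), and Manba, the lysosomal beta-mannosidase (chromosome 3, 135485611 to 135571404, plus strand), with 87.9 and 93.8 CPM in Rarα-OE, 50.4 and 52.4 CPM in Rxrα-OE and 371 and 369 CPM in V-OE (-2.03 ± 0.05, adjusted p = 2.04e-36). Notumos overlaps Notum on the opposite strand, so reads of the pair cannot be told apart; both were lower. Fgf15, an FGF of the early epiblast and gut, had 0.804 and 2.18 CPM in Rarα-OE and 5.07 and 6.63 CPM in V-OE (adjusted p = 2.26e-05).

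**Figure D4:**
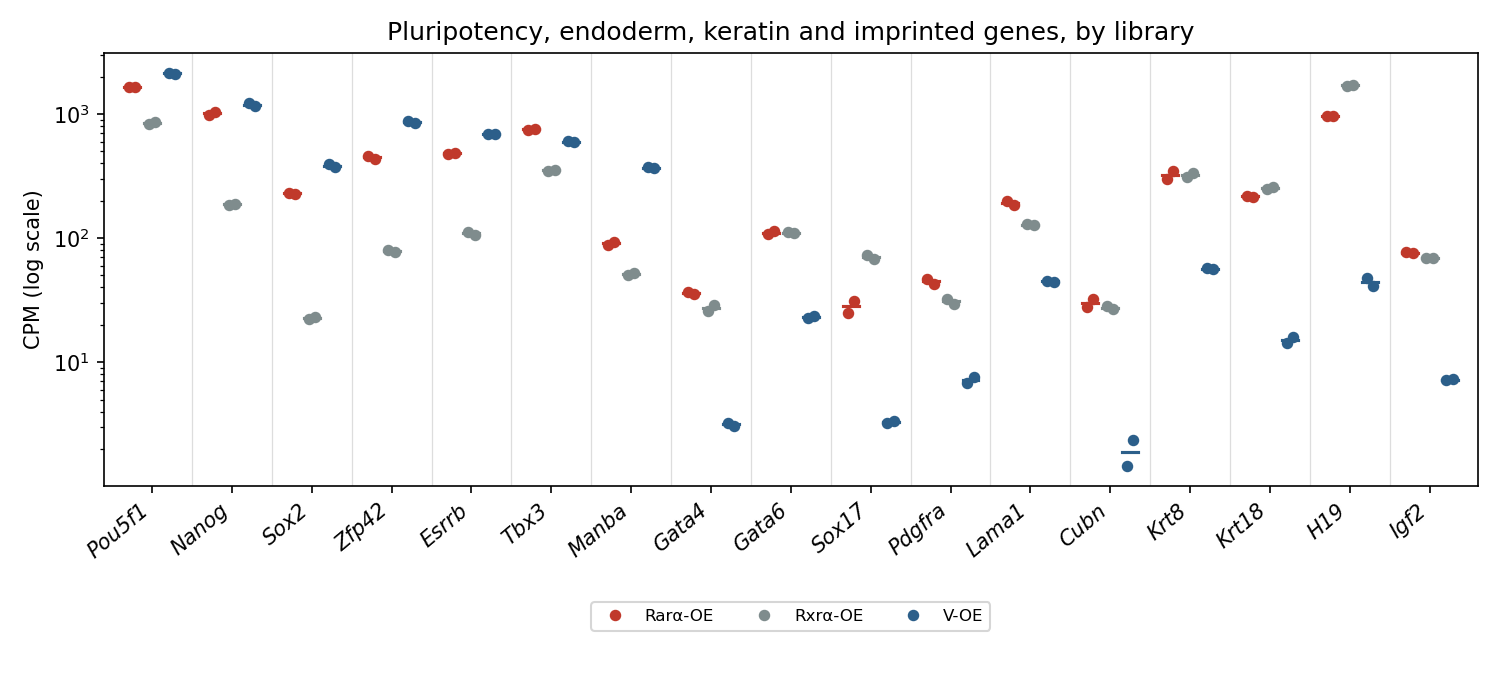
CPM (log scale) in each of the 6 libraries, Rarα-OE in red, Rxrα-OE in grey and V-OE in blue; points are libraries and bars group means. Gata4, Gata6, Lama1, Cubn, Krt8 and Igf2 are about as high in Rarα-OE as in Rxrα-OE or higher, whereas Nanog, Sox2, Zfp42 and Esrrb in Rarα-OE lie nearer to V-OE than to Rxrα-OE.

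The direct comparison of Rarα-OE with Rxrα-OE sets the line overexpressing one receptor beside the line overexpressing its partner. The level of Rxra in Rxrα-OE is not given here, and the lines may differ in how far each receptor was raised. In every difference between these lines, here and above, the receptor and its degree of overexpression cannot be told apart. It called 7979 genes (47.2%), 3952 higher in Rarα-OE (23.4%) and 4027 lower (23.8%). Each line's comparison with V-OE uses the same control libraries, and the Rarα-OE libraries enter both tests named here. Of the 2482 genes that rose in Rarα-OE over V-OE, 1171 were lower in Rarα-OE than in Rxrα-OE, 385 were higher and 926 did not pass. Of the 2347 that fell, 1304 were higher in Rarα-OE than in Rxrα-OE, 244 were lower and 799 did not pass. Rxrα-OE against V-OE called 10178 genes (60.2%), 5230 higher (30.9%) and 4948 lower (29.3%); its calls were opposite to those of Rarα-OE for 110 of the rises and 73 of the falls. Among the 596 rises of 2-fold or more, 64 were higher in Rarα-OE than in Rxrα-OE, 294 were lower and 238 did not pass.

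Among called genes, unnamed gene models passed over, with a mean of at least 1 on the log2 CPM scale over the 4 libraries of both lines, and with no overlap between the lines, the 5 highest in Rarα-OE over Rxrα-OE were Inhbb, Grm2, Pou3f1, Foxd3 and Slc15a1. Pou3f1 (Oct6), a factor of the primed epiblast, had 10.9 and 10.5 CPM in Rarα-OE, 0.347 and 0.761 CPM in Rxrα-OE and 11.4 and 11.7 CPM in V-OE. Foxd3, a forkhead factor of the epiblast, had 31.5 and 36.8 CPM in Rarα-OE, 2.78 and 2.45 CPM in Rxrα-OE and 58.2 and 51.3 CPM in V-OE. Their log2 differences were 4.16 and 3.71 (adjusted p = 7.10e-17 and 1.07e-26), and between Rarα-OE and V-OE Pou3f1 did not pass (-0.11 ± 0.19, adjusted p = 0.71). The 5 lowest under the same conditions were Ccdc42, Ephb1, Psca, Ambp and Lhx3, with at most 1.31 CPM in each Rarα-OE library and at least 8.10 CPM in each Rxrα-OE library. All 5 met the condition on the mean only through their Rxrα-OE libraries. V-OE values of Ephb1, Psca and Lhx3 are not reported here. Ccdc42 and Ambp were near the floor in V-OE too, with 0.121 and 0.510 CPM and 0.483 and 0.510 CPM. Neither passed between Rarα-OE and V-OE (adjusted p = 0.718 and 0.473, edgeR), and both had their counts mainly in Rxrα-OE. Psca, a surface protein, had 1.31 and 1.03 CPM in Rarα-OE and 51.6 and 61.4 CPM in Rxrα-OE (-5.57, adjusted p = 3.12e-31).

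The knockout of Rara gave a second view of the same gene, in a table counted separately. For single genes only fold changes are therefore set side by side. Y-linked counts of both tables are also given, not scaled to library size. Rara had 5.35 and 4.37 CPM in Rarα-KO and 100.1 and 108.7 CPM in WT-RARX (-4.42, adjusted p = 7.25e-08). That comparison called 106 of 16445 genes (0.645%) at the same threshold, 64 higher in Rarα-KO (0.389%) and 42 lower (0.255%). With any 1 of its 4 libraries left out it called between 8 and 29 genes, so the overlap below rests on all 4. Its replicates varied by 7.997 times the counting variance in Rarα-KO and 10.8 times in WT-RARX. Y-linked genes held 112 and 89 counts in Rarα-KO and 1972 and 1958 in WT-RARX, against 278 and 189 in Rarα-OE and 182 and 221 in V-OE; the part of this gap in the knockout's calls beyond the Y chromosome was not tested. Among 15976 genes tested in both tables, 4681 were called in Rarα-OE and 101 in Rarα-KO, and 55 in both, which is 1.17% of the Rarα-OE calls and 54.5% of the Rarα-KO calls. Of these 55, 43 had opposite directions, 16 higher in Rarα-OE and lower in Rarα-KO and 27 the other way, while 6 were higher in both and 6 lower in both. Rara itself is 1 of the 43. With chromosomes 2, 10 and Y left out, a choice made after seeing the data, 35 of the 55 remained, 30 opposite and 5 in the same direction. For scale, 28.6% of all 16914 genes tested in the overexpression table were called in Rarα-OE. The share of opposite directions over all genes tested in both tables was not computed, and the overlap was not tested.

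Among the opposite genes, Gata6 had 18.6 and 24.0 CPM in Rarα-KO and 50.7 and 51.1 CPM in WT-RARX (-1.25, adjusted p = 0.00963), beside its rise of 2.25 in Rarα-OE. Pgam2 had 5.24 and 9.93 CPM in Rarα-KO and 25.6 and 30.5 CPM in WT-RARX (-1.89, adjusted p = 0.022), beside 3.46 in Rarα-OE. Notch4 had 42.5 and 37.3 CPM in Rarα-KO and 14.1 and 17.2 CPM in WT-RARX (1.35, adjusted p = 0.0382), beside -2.39 in Rarα-OE. Inhbb had 119.8 and 105.7 CPM in Rarα-KO and 32.8 and 36.0 CPM in WT-RARX (1.71, adjusted p = 0.000503), beside -1.60 in Rarα-OE, and Nanog had 999 and 841 CPM in Rarα-KO and 469 and 411 CPM in WT-RARX (1.06, adjusted p = 0.022), beside -0.23. An endoderm factor, a Notch receptor, an activin subunit and a pluripotency factor thus passed the test in opposite directions in the overexpressing and the knockout cells. The CYP26 enzymes were lower in Rarα-KO without passing the test (Cyp26a1 -1.36, adjusted p = 0.0711), and Gata4 likewise (-1.38, adjusted p = 0.0593). Hoxa9 was higher in both comparisons, by 0.74 in Rarα-OE and 2.14 in Rarα-KO (adjusted p = 0.0382), and Sox3, an epiblast and neural factor, was lower in both (-0.81 and -1.57, adjusted p = 0.0089 and 0.025); the Rarα-OE call of Sox3 was lost without Rarα-OE replicate 1 or V-OE replicate 1.

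**Figure D5:**
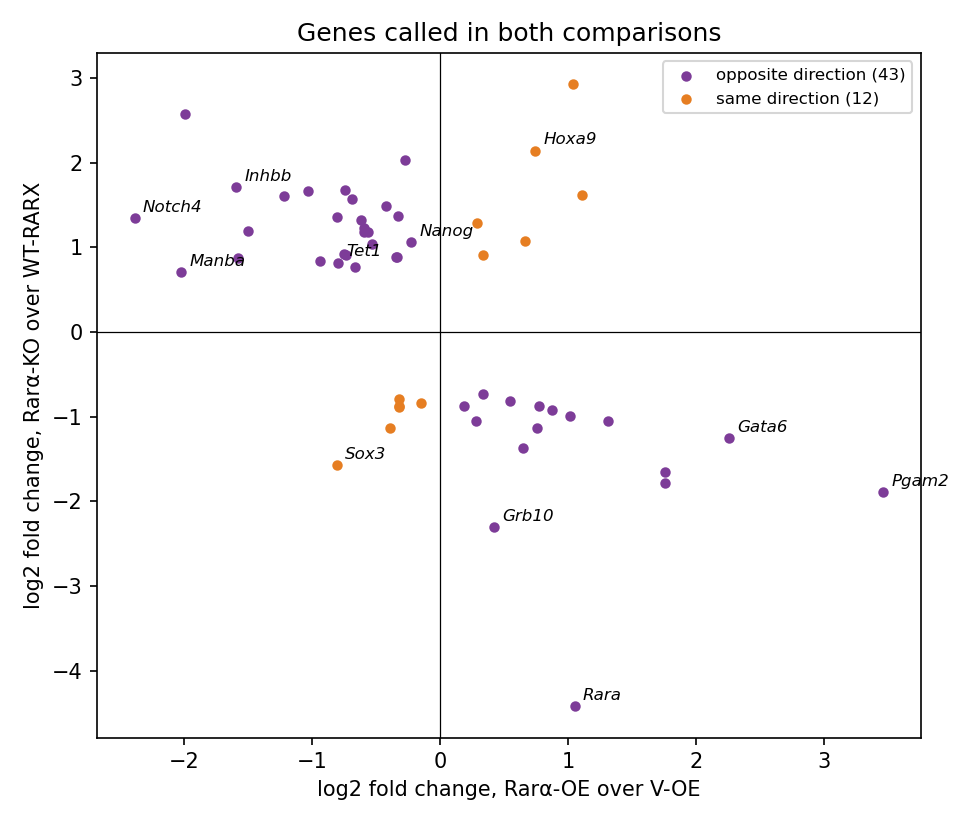
Log2 fold change of Rarα-OE over V-OE (x axis) against that of Rarα-KO over WT-RARX (y axis) for the 55 genes called in both; purple points have opposite directions and orange points the same. Rara lies lowest, Gata6 and Pgam2 at the lower right, and Notch4, Inhbb and Manba at the upper left.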

How the data were processed

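RNA-seq of Rarα-OE, Rxrα-OE and V-OE cells (2 libraries each) and of Rarα-KO and WT-RARX cells (2 each) was analysed; the labels name the replicates. The submitters' processing notes name HISAT2 2.1.0, HTSeq 0.9.1 and DESeq2 1.18.1 and the mm10 build. The authors deposited raw counts per gene, 52535 entries in the overexpression table, with no normalization; the setting for strand is not given in the sources used here. Among the names, 26 had been turned into dates and 2 were repeated, and these were not named.

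From these counts, 16914 genes passed edgeR's filterByExpr (minimum count 10). edgeR 4.0.16 (R 4.3.3, TMM scaling, robust quasi-likelihood fit over all 6 libraries of the table) gave fold changes, standard errors and Benjamini-Hochberg adjusted p-values, called under 0.05. CPM use library sizes scaled by TMM. The script was tested on simulated data. DESeq2 1.42.0 and other scalings, filters and left-out libraries were tried. Same-numbered replicates did not deviate together (correlations -0.01, -0.00 and -0.01), so no block was used. The knockout table was fitted separately.

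Members and gene lists were chosen with earlier results of these data known. Named were Rara, Rxra, the 12 largest rises and falls with a mean log2 CPM of at least 1 and no overlap (3 unnamed models passed over in each direction), up to 4 called members per list, whole RA and Hox lists, genes opposite in Rarα-KO, and 5 genes each way against Rxrα-OE. Not every gene the rule allows is described, and some are not reported here. Sall1, Tbx3, Tfcp2l1, Klf2, Klf4, Dppa5a, Gata1, Gata3, Cd34, Col4a1, Col4a2 and Atf4 were chosen after their values were seen. Likeness to Rara across libraries was not computed, because the 6 libraries fall into 3 groups. Gene coordinates are from GENCODE vM21 (mm10). In the knockout table chromosome medians of -0.08 (2), 0.06 (10) and -10.1 (Y, 7 genes) led to an overlap without these chromosomes.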

Additional observations from a re-analysis of the deposited data

How the results depend on the processing

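Against V-OE, the 4829 genes called in Rarα-OE became 2416 with DESeq2 and 903 at 2-fold or more; without filter, with other scalings, with the 4 libraries alone and with the replicate numbers as a block (4559) the count stayed between 4403 and 4897, and with 1 library left out between 3728 and 3925. With library totals alone 60.8% of calls were higher, against 51.4%. In none of these settings did a gene called in both the setting and the original fit change direction. Of 100 called genes named in the text, DESeq2 lost 9 (Aldh1a3, Dppa3, Grm2, Hoxa9, Hoxb13, Hoxb6, Pknox2, Rdh11 and Sox3), the block lost 0, and leaving out 1 library lost between 4 and 8.

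Against Rxrα-OE, 7979 became 5013 with DESeq2 and 1974 at 2-fold or more, and between 6391 and 7019 with 1 library left out. The 106 knockout calls became 259 with DESeq2, 551 without filter, 86 with the block and between 8 and 29 with 1 library left out. The 55 genes called in both comparisons became 115 with DESeq2 (95 opposite, 20 same). Without chromosomes 2, 10 and Y, an alternative chosen after seeing the data, they became 35 (30 opposite, 5 same). The cause of these changes was not tested, beyond fewer samples or genes where a setting removes them.

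Uncalled genes changed sign near 0. With library totals alone Rxra was at 0.031 and Gata3 at 0.0066. With 1 library left out Rxra lay between -0.12 and 0.11, Gata3 between -0.22 and 0.20, Gata1 between -0.10 and 0.72, Ccdc42 between -0.68 and 1.79 and Ephb1 between -0.42 and 0.83. List medians near 0 did so too: receptors at -0.00979 with DESeq2's size factors, and cholesterol synthesis at 0.017 and the NRF2 response at 0.0033 with library totals. Depth limits what can be said of genes at a few CPM per library or less, such as Hoxb1 and the 2-cell-like genes.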

Other observations

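Counts of other lists are given against the 14.7% of all tested genes that rose and the 13.9% that fell. Among 24 glycolysis and hypoxia genes 8 rose and 8 fell: Vegfa, an angiogenic growth factor, had 223 and 235 CPM in Rarα-OE and 108 and 115 CPM in V-OE (log2 fold change 1.04, adjusted p = 8.10e-23, edgeR), while the glycolytic enzyme gene Ldha fell by 0.52. Among 19 genes of the ATF4 amino acid response 8 rose and 1, Atf4, fell. Among 15 tested germline genes 1, Rec8, rose and 5 fell, with Hormad1, a protein of meiotic chromosome axes, at -1.25 and Smc1b, a meiotic cohesin subunit, at -1.03. Notch genes stood near those shares, with 2 of 14 tested higher and 3 lower; the ligand gene Dll1 had 6.73 and 5.13 CPM in Rarα-OE and 12.7 and 11.6 CPM in V-OE (-1.02, adjusted p = 0.000357). Cholesterol synthesis genes did too, with 3 of 20 higher and 2 lower and a median of -0.03.

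In the 2-cell-like list, Rarα-OE and Rxrα-OE stood on either side of V-OE. Of 15 listed, 8 were tested, 0 rose and 3 fell in Rarα-OE, all 8 were lower in Rarα-OE than in Rxrα-OE, and 6 were called higher in Rxrα-OE over V-OE. The list summed to 4.22 and 6.28 CPM in Rarα-OE, 42.1 and 42.1 CPM in Rxrα-OE and 13.9 and 13.5 CPM in V-OE. The 8 tested members are copies of Zscan4 and Usp17l, families with near-identical members, and the way reads were shared among them is not known, so single members are uncertain.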
